A study of Homo sapiens with 21 samples.

Results

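Guanylate-binding proteins and poly(ADP-ribose) polymerases of the interferon response were followed through 10 genes: GBP1, GBP2, GBP3, GBP4 and GBP5, and PARP9, DTX3L, PARP14, PARP10 and PARP12. They were taken by symbol, from probe sets annotated to exactly 1 of these names, and where a gene had several, the one with the highest average signal across the 21 arrays was used. The 10 genes are 10 of 18132 genes measured, and 31 of the 49372 probe sets on the array carry their names. The study profiled 21 samples of SH-SY5Y, a human neuroblastoma cell line that takes on neuron-like features when differentiated. Every sample, controls included, had first been kept for 3 to 4 days in retinoic acid (10 µM) and the neurotrophin BDNF (50 ng/mL), and was then given 0.1% DMSO, alone or as the solvent of a compound, for 72 h. Wild-type (WT) cells received DMSO alone (WT_DMSO), AG494 (WT_AG494), NOSCA (WT_NOSCA) or PALBO (WT_PALBO). Cells labelled APP-V717F mutated, a change in the amyloid precursor protein gene that is known from familial Alzheimer's disease, received DMSO alone (APP_DMSO), AG494 (APP_AG494) or NOSCA (APP_NOSCA). Each of these 7 groups had 3 arrays, from 3 independent experiments. The labels give neither the doses of the compounds nor how the mutation was introduced or how many clones were used, so that the genotype and the mutated line cannot be told apart.

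Guanylate-binding proteins (GBPs) are large GTPases that interferons, above all interferon gamma, induce in many cell types, where they gather on intracellular pathogens and help to start inflammasome signalling. PARP9 and DTX3L form a complex: PARP9 carries macrodomains that bind ADP-ribose, and DTX3L is a ubiquitin ligase of the Deltex family. PARP10, PARP12 and PARP14 transfer single ADP-ribose units to proteins, and they are known as interferon-responsive genes as well. Type I interferons act through the ISRE, a DNA element built on repeated GAAA, and interferon gamma acts first through the GAS element, a palindrome of TTC and GAA.

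Promoter windows of 300 bases, 250 before to 50 after an annotated transcript start, were taken from RefSeq (GRCh38.p14) for 7 of the 10 genes. They are shown because the 3 genes whose levels differed most between the groups and 4 genes that stayed low could be compared by their letters. No window is given here for GBP2, GBP5 and PARP10. The ISRE core was searched as GAAA, any 2 bases and GAAA, and the GAS element as TTCNNNGAA, on both strands. Capitals mark the ISRE core, which reads TTTC, 2 bases and TTTC where it lies on the other strand. DTX3L (chr3:122564088-122564387, plus strand) and the second of 2 windows of PARP9 (chr3:122564251-122564550, minus strand) overlap and face away from each other, and GBP4 lies at chr1:89198893-89199192 on the minus strand.

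DTX3L: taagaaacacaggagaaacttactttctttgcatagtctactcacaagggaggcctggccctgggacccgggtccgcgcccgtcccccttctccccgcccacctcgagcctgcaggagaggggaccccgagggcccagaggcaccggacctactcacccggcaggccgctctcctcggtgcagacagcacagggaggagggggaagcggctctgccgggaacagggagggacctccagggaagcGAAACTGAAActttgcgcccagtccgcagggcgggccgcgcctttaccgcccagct
PARP9: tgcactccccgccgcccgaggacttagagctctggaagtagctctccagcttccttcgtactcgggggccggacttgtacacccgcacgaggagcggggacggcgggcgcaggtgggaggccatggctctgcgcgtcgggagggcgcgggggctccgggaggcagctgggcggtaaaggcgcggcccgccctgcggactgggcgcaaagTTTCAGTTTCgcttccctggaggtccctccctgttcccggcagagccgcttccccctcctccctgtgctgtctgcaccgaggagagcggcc
GBP4: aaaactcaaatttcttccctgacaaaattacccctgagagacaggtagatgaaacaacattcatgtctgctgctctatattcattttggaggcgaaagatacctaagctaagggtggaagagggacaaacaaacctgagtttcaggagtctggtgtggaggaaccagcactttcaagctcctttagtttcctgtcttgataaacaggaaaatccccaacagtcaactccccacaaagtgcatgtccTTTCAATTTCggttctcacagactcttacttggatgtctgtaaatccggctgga

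The capitals in the DTX3L and the PARP9 window are the same 10 bases of the genome, chr3:122564332-122564341, read on opposite strands. The core begins at position -6 from the start of DTX3L, at -41 from the start of PARP9 and at -4 from the start of GBP4. For the 4 genes that stayed low on these arrays, the core is shown with 15 bases on either side.

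GBP1: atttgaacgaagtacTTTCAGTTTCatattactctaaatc
GBP3: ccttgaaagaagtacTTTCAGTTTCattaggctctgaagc
PARP14: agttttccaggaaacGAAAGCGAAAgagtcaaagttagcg
PARP12: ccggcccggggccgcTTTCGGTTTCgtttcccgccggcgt

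These lines lie at chr1:89065311-89065350 (GBP1, minus strand), chr1:89022840-89022879 (GBP3, minus strand), chr3:122680795-122680834 (PARP14, plus strand) and chr7:140062937-140062976 (PARP12, minus strand), and the core begins at positions -127, 3, -29 and -10 from the respective starts. All 7 genes with a window held the ISRE core, in 7 of their 8 windows; the first PARP9 window, upstream of the other, held none. Over all genes with a window, 1195 of 27305, or 4.38%, held it, and of a list of 26 other interferon effector genes with a window, 16 held it. The GAS letters occurred in GBP3 and PARP14, 2 of the 7 genes, against 9.38% of all genes, and did not overlap the ISRE core in either. The core was thus present both in genes called between the cell lines and in genes that were not called, and such a match describes letters only.

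All values below are log2 intensities, so that a difference of 1 is a doubling of the signal, and levels are compared within a gene only. Array medians lay between 7.88 and 8.03, and the lowest value of the whole table was 4.14. Differences were tested with limma over all genes, and a gene is called where its p-value, adjusted by the method of Benjamini and Hochberg, lies under 0.05. Of the markers of SH-SY5Y and related noradrenergic cells, 10 were measured, with group means from 7.51 to 13.3, and their summed level lay between 15.67 and 15.94 on every array. CHGA and CHGB were higher in APP_DMSO than in WT_DMSO, by 0.59 and 0.63, and DBH and ELAVL4 fell by 0.31 and 0.41. Among 13 immune cell markers, PTPRC (CD45) read 4.98 in WT_DMSO and 5.04 in APP_DMSO, and none was called between them.

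PARP9 and DTX3L were higher in the APP cells than in the WT cells under every treatment that both lines received. PARP9, the macrodomain partner of the complex, read 7.13, 6.86 and 6.66 on the 3 WT_DMSO arrays and 9.37, 9.37 and 9.62 on the 3 APP_DMSO arrays. The WT_DMSO mean was 6.88 ± 0.24 (SD, n = 3) and the APP_DMSO mean 9.45 ± 0.15 (SD, n = 3). The lowest APP array thus lay far above the highest WT array. The difference was 2.57 (SE 0.12, adjusted p = 5.9e-11), a 5.95-fold higher signal with a 95% interval of 5.00 to 7.06. DTX3L, its ubiquitin ligase partner, read 8.78, 8.92 and 9.29 in WT_DMSO and 10.90, 11.02 and 11.35 in APP_DMSO. It too had no overlap between the lines, and the difference was 2.09 (SE 0.12, adjusted p = 2.0e-09), or 4.27-fold. In a bulk sample, a change in the number of expressing cells and a change in RNA per cell cannot be told apart.

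The same difference was seen on separate arrays under the compounds. Under AG494, a tyrphostin inhibitor of the EGF receptor kinase, PARP9 read 7.36, 7.62 and 7.80 in WT cells and 10.21, 9.99 and 10.03 in APP cells, a difference of 2.48 (adjusted p = 1.8e-10). Under NOSCA it read 7.56, 7.46 and 7.46 in WT cells and 9.38, 9.48 and 9.25 in APP cells, a difference of 1.88 (adjusted p = 7.0e-09). DTX3L differed by 1.83 under AG494 (adjusted p = 9.6e-09) and by 1.47 under NOSCA (adjusted p = 2.1e-07). For both genes the gap was numerically smallest under NOSCA, where the WT level was above that of WT_DMSO and the APP level was not. All 12 WT arrays of PARP9 lay between 6.66 and 7.80 and all 9 APP arrays between 9.25 and 10.21; for DTX3L these ranges were 8.78 to 9.79 and 10.90 to 11.45.

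GBP4, a guanylate-binding protein, showed the largest genotype difference of the 10 genes by the probe set that stands for it, but not by the mean of its probe sets, where it was 0.78 under DMSO beside 2.21 for PARP9 and 2.06 for DTX3L. By its brightest probe set it read 5.36, 4.89 and 4.96 in WT_DMSO, near the low end of the scale, and 8.03, 7.70 and 8.57 in APP_DMSO. The means were 5.07 ± 0.26 (SD, n = 3) and 8.10 ± 0.44 (SD, n = 3), and the ranges lay apart. The difference was 3.03 (SE 0.21, adjusted p = 1.4e-08). As the WT arrays lay at a level where a low or absent transcript cannot be told apart from background, no fold is given. Under AG494 GBP4 read 5.58, 5.30 and 5.06 in WT cells and 9.43, 8.97 and 9.54 in APP cells, a difference of 4.00 (adjusted p = 4.8e-10). Under NOSCA it read 5.44, 5.15 and 5.16 in WT cells and 8.39, 8.02 and 8.71 in APP cells, a difference of 3.12 (adjusted p = 1.4e-08). No WT array, whatever the compound, exceeded 5.58 and no APP array fell below 7.70.

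**Figure D1:**
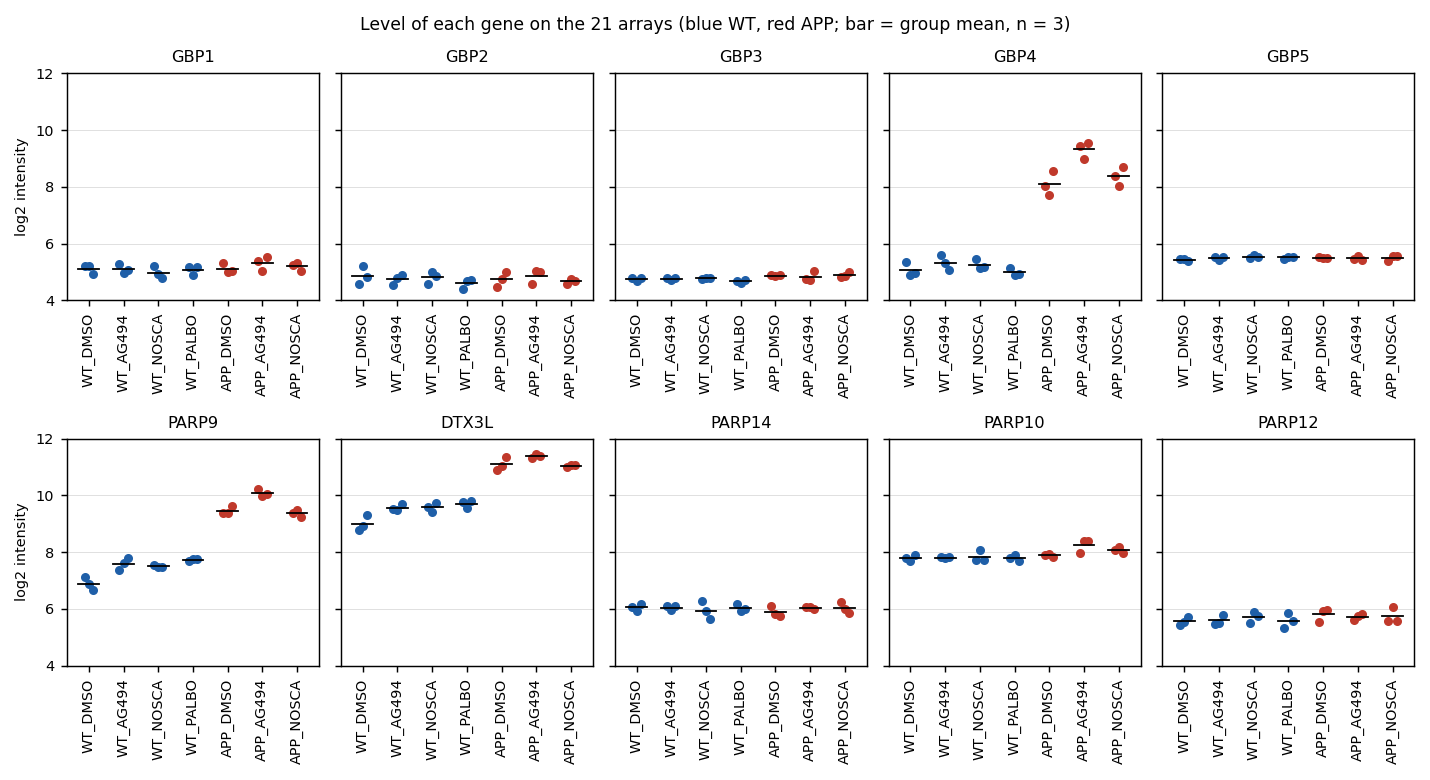
Log2 intensity of the 10 genes on the 21 arrays; each point is an array, blue for WT and red for APP cells, and each bar is the mean of the 3 arrays of a group. PARP9, DTX3L and GBP4 form separate WT and APP bands, whereas the arrays of the other 7 genes overlap between the lines.

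The other 4 guanylate-binding proteins stayed low everywhere. GBP1, which coats bacteria in the cytosol, lay between 4.78 and 5.53 on all 21 arrays, GBP2 between 4.40 and 5.22, and GBP3 between 4.62 and 5.05. GBP5, known as an activator of the NLRP3 inflammasome, lay between 5.38 and 5.59. Their genotype differences under DMSO were -0.002, -0.14, 0.12 and 0.08 in the order GBP1, GBP2, GBP3 and GBP5, none of them called. The 95% interval of GBP1 ran from -0.30 to 0.29 and that of GBP2 from -0.49 to 0.22. These intervals describe the probe sets and do not limit the change of the genes. At levels this near the floor of the table a low or absent transcript cannot be told apart from background, as the values come with no detection call.

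Among the mono-ADP-ribosyltransferases, PARP14, a large macrodomain protein known as a cofactor of STAT6, lay between 5.64 and 6.26 on all arrays. Its genotype difference under DMSO was -0.16, with a 95% interval from -0.44 to 0.12. PARP12, a zinc finger protein with antiviral activity, lay between 5.31 and 6.07 and differed by 0.24 (95% interval -0.09 to 0.58). Both intervals describe probe sets with low signals and do not limit the change of the genes. With the mean of all its probe sets PARP14 differed by 0.13, also not called. PARP10, known as a partner of MYC, was well above the floor, with 7.79, 7.69 and 7.88 in WT_DMSO and 7.90, 7.92 and 7.84 in APP_DMSO. Its difference there was 0.10 (adjusted p = 0.71), and the arrays overlapped. Under AG494 PARP10 read 7.82, 7.78 and 7.81 in WT cells and 7.96, 8.39 and 8.38 in APP cells, and all 3 APP arrays lay above the WT arrays. That difference, 0.44, passed the test (adjusted p = 0.015). It was lost without WT_AG494 replicate 2, APP_AG494 replicate 2 or APP_AG494 replicate 3, with 0.36 and an adjusted p of 0.094 without APP_AG494 replicate 2. Under NOSCA the difference was 0.23 (adjusted p = 0.28). These values are of the brightest of the 3 PARP10 probe sets. The 3 gave 0.07 to 0.44 under AG494, with 2 called, and 0.14 to 0.39 under NOSCA, with 1 called.

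By count, 3 of the 10 genes were called higher in APP cells under DMSO, where 5.2% of all genes were called higher. Under AG494 4 were called higher, against 4.1% of all genes, and under NOSCA 3, against 3.56%. None of the 10 was called lower in any of the 3 treatments. The median difference over the 10 genes was 0.11, 0.18 and 0.17 in these treatments, beside 0.02 over all genes in each. The median was small because most of the 10 genes hardly differed while GBP4, PARP9 and DTX3L differed by 1.47 or more. Arrays of the lines did not overlap for 5 of the 10 genes under DMSO, against 13.0% of all genes that were higher without overlap; GBP3 and GBP5 were the 2 that did not pass the test.

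**Figure D2:**
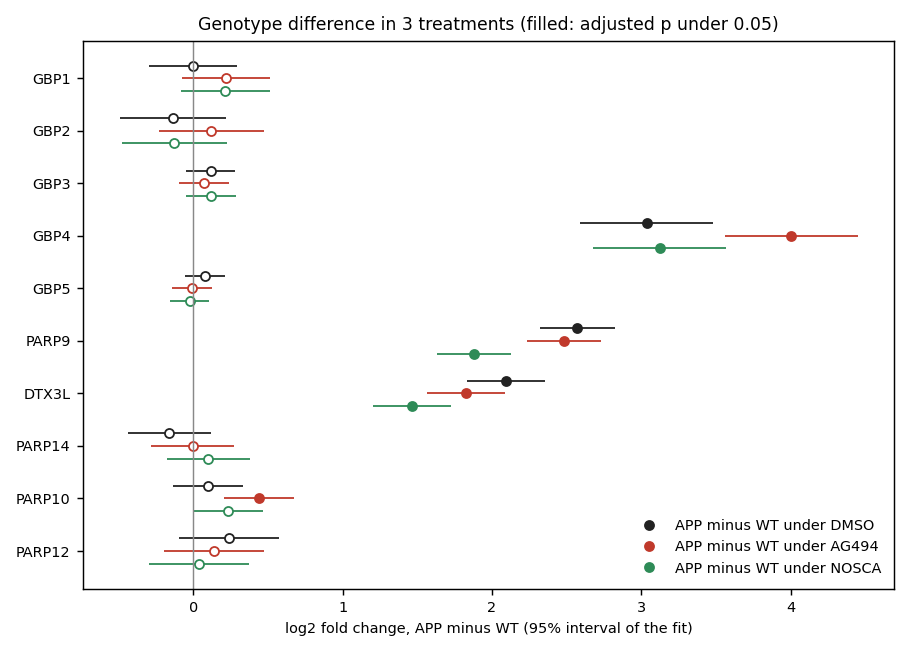
Difference between APP and WT cells (log2 fold change, horizontal axis) for each of the 10 genes under DMSO (black), AG494 (red) and NOSCA (green), with 95% intervals; filled points have an adjusted p under 0.05. GBP4, PARP9 and DTX3L lie between 1.47 and 4.00 in all 3 treatments, PARP10 passes under AG494, and the other intervals include 0.

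Probe sets of 1 gene did not always read alike, so all 31 were tested beside the other probe sets with 1 symbol. Under DMSO 9 of the 31 were called higher in APP cells and none lower, against 4.74% called higher of the 44988 probe sets tested. All 3 probe sets of PARP9 were among them, with differences of 2.57, 1.63 and 2.43, and so were all 3 of DTX3L, with 2.09, 1.86 and 2.22. For these genes every probe set gave the same direction with a difference of at least 1.63. The probe set that stands for DTX3L, 11717562_x_at, and its partner 11717561_s_at have suffixes that mark possible hybridisation to other transcripts. The third, 11717563_a_at, has no such suffix and gave 2.22.

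GBP4 rested mainly on 1 probe set. The bright one, 11733950_at, gave 3.03. It was brightest through its APP arrays, since in WT_DMSO it read 5.07, below the next probe set. A further one, 11733951_at, read 5.25 in WT_DMSO and 5.82 in APP_DMSO, a difference of 0.57 (adjusted p = 0.0022). The remaining 3 were near the floor, with 0.11, 0.11 and 0.09 and no call. Averaged over its 5 probe sets, GBP4 differed by 0.78 (adjusted p = 3.7e-07) in place of 3.03. Under AG494 all 5 GBP4 probe sets were called, with 4.00, 0.78, 0.44, 0.42 and 0.34. GBP genes are close in sequence, and whether the GBP4 probe sets also bind other family members was not tested. Of the 6 PARP14 probe sets, 11721997_s_at alone was called under DMSO, with 5.12 in WT_DMSO and 5.61 in APP_DMSO (difference 0.49, adjusted p = 0.0012), while the brightest gave -0.16.

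**Figure D3:**
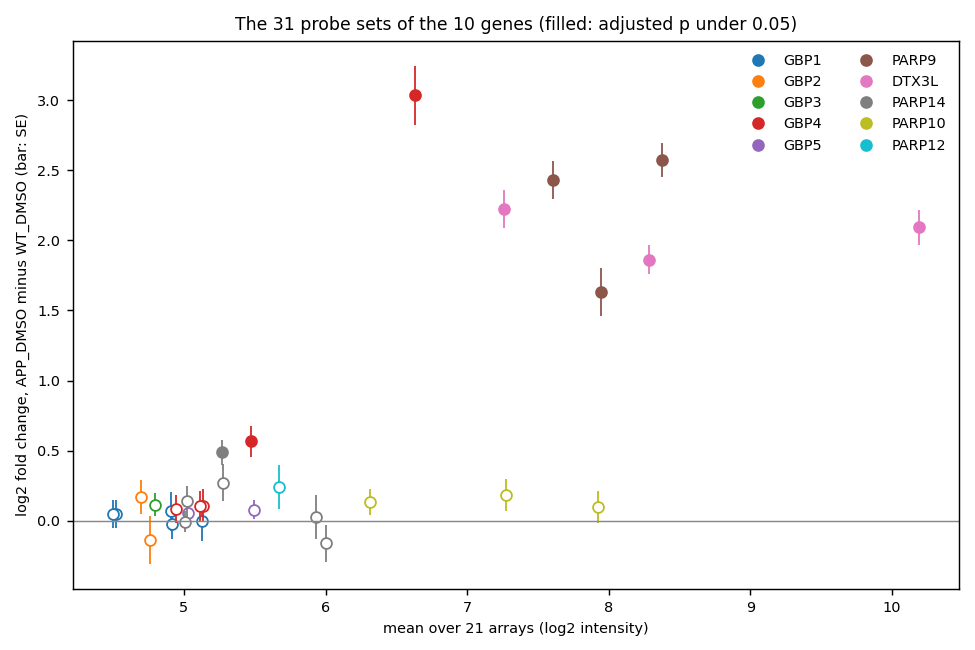
Difference between APP_DMSO and WT_DMSO (log2 fold change, vertical axis, bars are SE) against the mean over 21 arrays (log2 intensity, horizontal axis) for the 31 probe sets, coloured by gene; filled points have an adjusted p under 0.05. The 6 probe sets of PARP9 and DTX3L lie between 1.63 and 2.57, while for GBP4 1 probe set lies at 3.03, 1 at 0.57 and 3 near 0.

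In WT cells PARP9 rose under PALBO and AG494 and DTX3L rose under PALBO, and their mean levels under the remaining compounds also lay above that under DMSO without passing the test. These 3 comparisons share the WT_DMSO arrays, so that their directions are not independent of each other, and the same arrays also enter the genotype difference under DMSO. PARP9 had read 7.13, 6.86 and 6.66 under DMSO and read 7.68, 7.77 and 7.75 under PALBO, a rise of 0.85 (SE 0.12, adjusted p = 0.0002). DTX3L read 9.75, 9.56 and 9.79 under PALBO, above all 3 DMSO arrays, a rise of 0.70 (SE 0.12, adjusted p = 0.0014). These were the only 2 of the 10 genes called under PALBO, where 3.11% of all genes were called higher. Arrays were higher without overlap for 3 of the 10, GBP5 being the third, against 10.7% of all genes. In folds, the signal under PALBO was 1.80 times that under DMSO for PARP9 (95% interval 1.52 to 2.14) and 1.63 times for DTX3L. These values are of the probe sets with the largest rise. The 3 probe sets of PARP9 gave 0.29 to 0.85, with 2 called, and those of DTX3L 0.50 to 0.70, all 3 called. With the mean of all probe sets the rise was 0.66 for PARP9 and 0.58 for DTX3L.

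Under AG494 in WT cells PARP9 rose by 0.71 (SE 0.12, adjusted p = 0.014), and no array overlapped with DMSO. Arrays were higher without overlap for 2 of the 10 genes, PARP9 and DTX3L, against 5.53% of all genes. PARP9 was the single gene called of the 10, against 0.165% of all genes called higher. The call was lost without WT_DMSO replicate 2, WT_AG494 replicate 2 or WT_AG494 replicate 3, where the rise was between 0.60 and 0.83 over all left-out arrays. The 3 probe sets of PARP9 gave 0.33 to 0.71, with 2 called, and those of DTX3L 0.26 to 0.59, with none called. DTX3L read 9.50, 9.48 and 9.68 under AG494, a difference of 0.56 that did not pass (adjusted p = 0.077). The labels do not state which arrays share an experiment, so that here and below it is read from the runs of title numbers. With the experiment as a block in this sense, both genes passed (adjusted p = 0.0057 for PARP9 and 0.005 for DTX3L), 2 of 10 against 1.09% of all genes.

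Under NOSCA in WT cells the differences were 0.61 for PARP9 (adjusted p = 0.10) and 0.58 for DTX3L (adjusted p = 0.15), and neither passed. These were the largest among the 3 probe sets of each gene, of which the smallest gave 0.13 for PARP9 and 0.25 for DTX3L. With the mean of all probe sets they were 0.36 for PARP9 and 0.41 for DTX3L. DTX3L read 9.59, 9.41 and 9.72 there. None of the 10 genes was called, where limma called 0.00552% of all genes higher; at an unadjusted p under 0.05 there were 2, these same genes, against 6.91% of all genes. With the experiment as a block both were called (adjusted p = 0.04 for PARP9 and 0.013 for DTX3L), against 0.243% of all genes. The arrays of PARP9, DTX3L and GBP5 under NOSCA lay above those under DMSO without overlap, 3 of the 10 genes against 5.41% of all genes. GBP5 differed by 0.11 only. GBP4 differed by 0.25 under AG494, 0.18 under NOSCA and -0.07 under PALBO in WT cells, with overlapping arrays in each, and stayed within 4.89 to 5.58.

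In APP cells AG494 raised GBP4 and PARP9 further. GBP4 had read 8.03, 7.70 and 8.57 in APP_DMSO and read 9.43, 8.97 and 9.54 in APP_AG494, and the lowest treated array lay above the highest vehicle array. The rise was 1.21 (SE 0.21, adjusted p = 0.002), or 2.32-fold with a 95% interval of 1.70 to 3.15. That value is of the bright GBP4 probe set: the other 4 gave 0.19, 0.27, 0.21 and 0.35, none called, and the mean of all 5 gave 0.45 (adjusted p = 0.00076). PARP9 rose by 0.62 (SE 0.12, adjusted p = 0.0038), or 1.54-fold, also with no overlap, and its 2 further probe sets gave 0.56, not called, and 0.74, called. By count, 2 of the 10 were called higher, against 1.99% of all genes. Arrays were higher without overlap for 3 of the 10, PARP10 being the third, against 9.06% of all genes. DTX3L read 11.32, 11.45 and 11.38 against 10.90, 11.02 and 11.35, and its difference of 0.29 did not pass (adjusted p = 0.24). The other 2 DTX3L probe sets, however, were called, with 0.54 and 0.65. With the mean of all probe sets DTX3L was called too, with 0.50 (adjusted p = 0.0017). PARP10 differed by 0.36 (adjusted p = 0.079), a call with the experiment as a block (adjusted p = 0.029), which made 3 of 10 against 4.72% of all genes. Its 3 probe sets gave 0.07 to 0.36, with none called.

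For NOSCA in APP cells no difference of the 10 genes passed. GBP4 differed by 0.27 (95% interval -0.17 to 0.71), PARP9 by -0.08 (-0.33 to 0.17) and DTX3L by -0.05 (-0.31 to 0.21). None of the 10 genes was called by limma, and none of the 18132 genes either (0.0%). At an unadjusted p under 0.05 there were 959 genes (5.29%), none of them among the 10, and with the experiment as a block 5 genes (0.0276%) were called, again none of the 10.

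**Figure D4:**
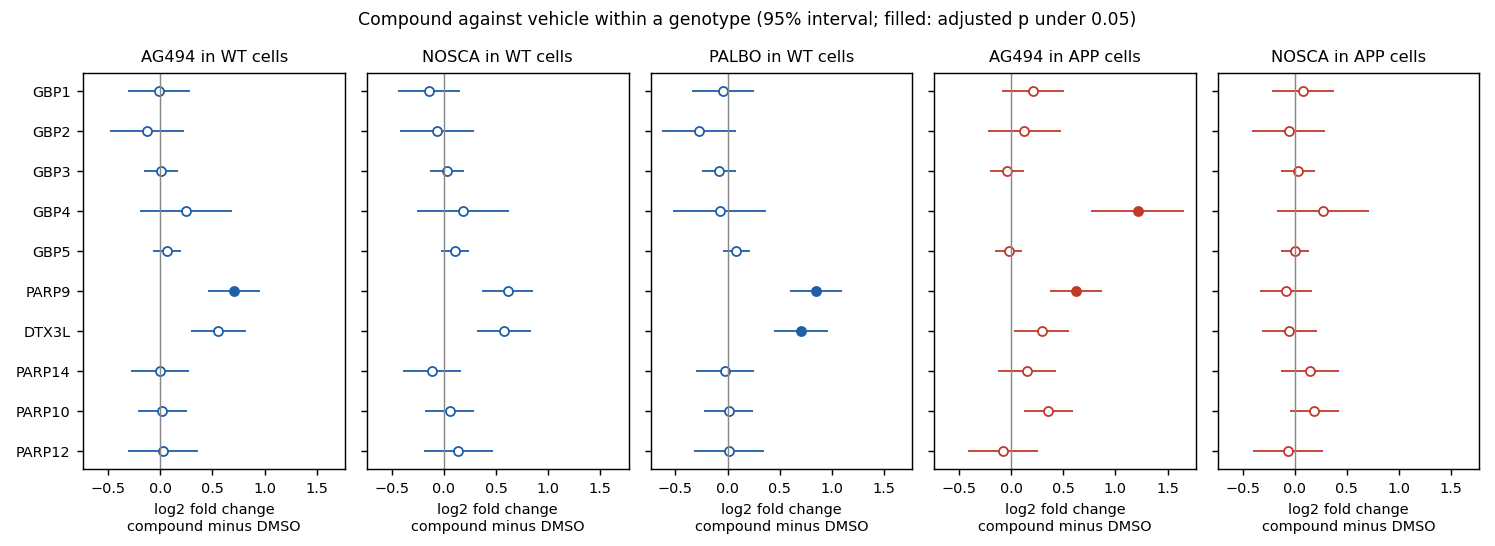
Difference between compound and DMSO within a cell line (log2 fold change, horizontal axis) for the 10 genes with 95% intervals, 1 panel per comparison, blue for WT and red for APP cells; filled points have an adjusted p under 0.05. PARP9 passes under AG494 and PALBO in WT cells and under AG494 in APP cells, DTX3L under PALBO, and GBP4 under AG494 in APP cells alone.

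Whether the response differed between the lines was tested directly. For AG494, the GBP4 response was larger in APP cells by 0.97 (SE 0.30, 95% interval 0.34 to 1.60), but this did not pass over all genes (adjusted p = 0.30, and 0.059 with the experiment as a block). The WT arrays of GBP4 lay near the floor, where a response could not be seen, so that this value does not measure a difference in response. With the mean of all probe sets the value was 0.42 (adjusted p = 0.11). For NOSCA, the PARP9 response was smaller in APP cells by a difference of -0.69 (95% interval -1.04 to -0.34) and the DTX3L response by -0.63 (95% interval -1.0 to -0.26). Neither passed (adjusted p = 0.88 for both). These were the largest among the 3 probe sets of each gene, of which the smallest gave -0.22 for PARP9 and -0.45 for DTX3L. With the mean of all probe sets the values were -0.40 and -0.53. None of the 10 genes was called for either interaction by limma, against 0.0386% of all genes for AG494 in either direction and 0.0% for NOSCA; at an unadjusted p under 0.05 there were 2 of the 10 for each, against 7.53% of all genes for AG494 and 4.94% for NOSCA.

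In the order of group means, PARP9 ran from WT_DMSO at 6.88 through WT_NOSCA, WT_AG494 and WT_PALBO at 7.73 to APP_NOSCA at 9.37, APP_DMSO and APP_AG494 at 10.08. Neighbours among the 3 compound-treated WT groups overlapped, and so did APP_NOSCA and APP_DMSO. A gap of 1.64 separated the lines. DTX3L took nearly the same order, from WT_DMSO as the lowest to APP_AG494 at 11.38, with WT_AG494 and WT_NOSCA exchanged and a gap of 1.34 between the lines. For GBP4 all neighbours among the 4 WT groups overlapped, the gap between the lines was 2.79, and APP_AG494 lay 0.94 above APP_NOSCA without overlap. The spread of group means was 1.88 for GBP4, 1.23 for PARP9 and 0.95 for DTX3L (SD over 7 groups), against pooled SDs within groups of 0.29, 0.15 and 0.16. For the other 7 genes the spread of group means was at most 0.17, the value of PARP10, whose pooled SD was 0.14.

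The GBP genes lie side by side on chromosome 1, and PARP9, DTX3L and PARP14 lie on chromosome 3 with PARP15 between DTX3L and PARP14. In the order of the RefSeq gene table, GBP3, GBP1, GBP2, GBP7, GBP4 and GBP5 were flanked by GTF2B, KYAT3 and RBMXL1 on the one side and by GBP6, LRRC8B and LRRC8C on the other. Of these 12 measured genes GBP4 alone was called between APP_DMSO and WT_DMSO. GBP7, its neighbour, read 4.63 in WT_DMSO and 4.79 in APP_DMSO, and GBP6 read 5.08 and 5.24. In the chromosome 3 stretch PARP9 and DTX3L were called, and PARP15 (0.19) and PARP14 (-0.16) next to them were not. Of the 6 flanking genes measured there, KPNA1 was higher by 0.27 (adjusted p = 0.046), FAM162A fell by 0.89 (adjusted p = 0.00041), and WDR5B, HSPBAP1, SLC49A4 and SEMA5B did not pass. PARP10 on chromosome 8 and PARP12 on chromosome 7 had no called gene among the 3 measured on either side.

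**Figure D5:**
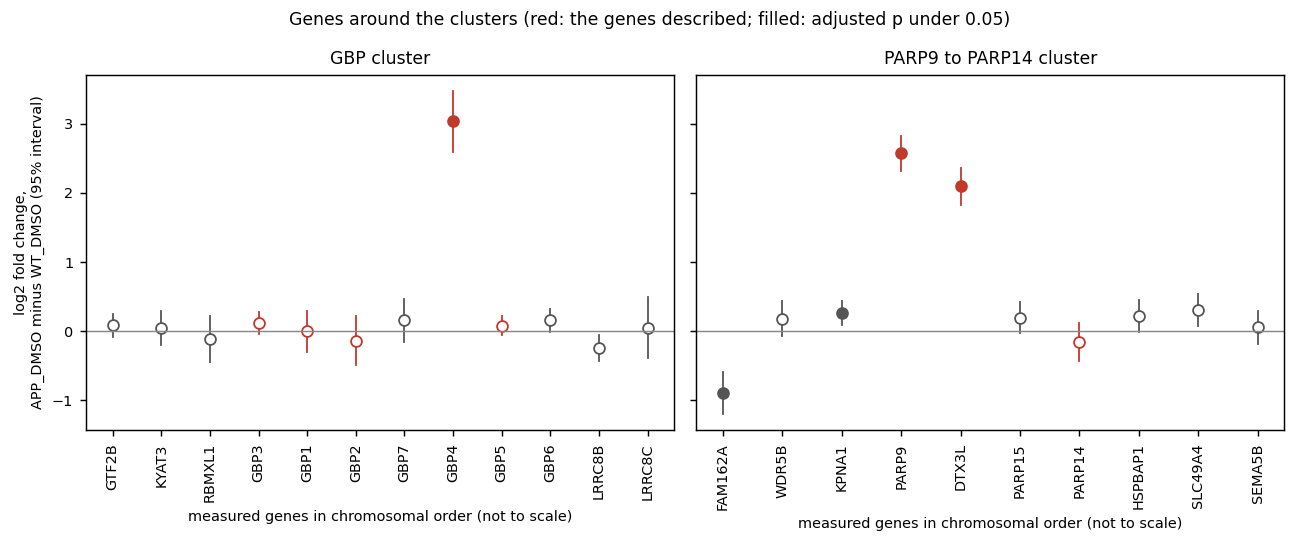
Difference between APP_DMSO and WT_DMSO (log2 fold change, vertical axis, 95% intervals) for the measured genes around the GBP cluster and the PARP9 to PARP14 cluster in chromosomal order, not to scale; red marks genes of the 10, filled points have an adjusted p under 0.05. GBP4 stands alone at 3.03, and PARP9 and DTX3L stand at 2.57 and 2.09 beside genes between -0.89 and 0.31.

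For the wider families, the counts are to be read beside the shares over all genes under DMSO. Of all genes 5.2% were called higher and 4.05% lower, and with the experiment as a block 10.2% and 7.14%. Of 13 other PARP genes, 2 were called higher under DMSO and none lower: ZC3HAV1 (PARP13, an antiviral zinc finger protein) by 0.66 and PARP3 by 0.32. With the experiment as a block, PARP4 and PARP6 passed too, which made 4. Their median difference was 0.09. None of 7 measured genes for the removal of ADP-ribose, such as PARG, passed. Of 4 other Deltex ligases, DTX1 fell by 0.25 (adjusted p = 0.014), and DTX3 and DTX4 were called higher with the experiment as a block alone. Of the other GBP and atlastin genes, GBP6, GBP7, ATL1 and ATL3 were measured and none passed. Among 10 partners of GBPs in the inflammasome, GSDMD, the pore-forming gasdermin, fell by 0.54 (adjusted p = 0.016), and CASP4, the receptor for cytosolic lipopolysaccharide, differed by 0.61 (adjusted p = 0.23, and 0.008 with the experiment as a block). PYCARD, the inflammasome adaptor, differed by -0.33 and was likewise called with the block alone.

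Interferon-responsive genes outside these families were higher together with GBP4, PARP9 and DTX3L. Of 31 interferon effectors measured, 24 were called higher in APP_DMSO and none lower, with a median of 1.36. The largest were IFI44L (3.79), IFI44 (3.70), IFIT1 (3.68) and OAS1 (3.37). Under AG494 in APP cells 19 of the 31 rose, none fell, and the median was 0.76. With the experiment as a block 24 were called higher there, against 4.72% of all genes. Of 14 interferon gamma chemokines and targets 6 were called higher under DMSO, with TAP1 (3.11), PSMB9 (2.78), PSMB8 (2.00) and ICAM1 (0.64) leading, and a median of 0.20. CXCL10, a chemokine of this list, read 4.88 in WT_DMSO and 5.15 in APP_DMSO and did not pass. Of 11 genes of interferon gamma signalling NLRC5 (1.59), IRF1 (1.04) and SOCS3 (0.90) were higher, and IFNG itself read 4.80 and 4.86. Of 9 genes of type I interferon signalling IRF9 (1.39) and IRF7 (1.11) were higher, and IFNB1 read 5.27 and 5.24. The median of these lists under DMSO is to be read beside 0.02 over all genes. The counts of these lists are to be read beside 5.2% of all genes called higher under DMSO and 1.99% under AG494 in APP cells.

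These lists had been drawn up with earlier results of these data known, so that their counts are no independent evidence. The summed level of the 13 immune markers lay between 10.10 and 10.18 in WT_DMSO, between 10.06 and 10.11 in APP_DMSO and between 10.16 and 10.42 in APP_AG494; CD68 was the 1 marker called under AG494 in APP cells, by 0.52. Of 10 endothelial and fibroblast markers DCN was higher by 1.55 and COL1A1 fell by 1.19 between APP_DMSO and WT_DMSO. The part of these markers in the levels of GBP4, PARP9 and DTX3L was not tested.

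The genes whose levels over the 21 arrays were most like GBP4 were DDX60 (Pearson r = 0.981), IFITM3 (0.979) and SAMD9L (0.979). For PARP9 they were IFI44 (0.982), IFITM3 (0.977) and HERC6 (0.977), and for DTX3L SCN9A (0.981), a sodium channel gene, IFI44 (0.980) and HERC6 (0.975). The arrays fall into 2 clusters by line, which by itself gives high values, and the correlation was therefore also taken within each line. Within the 12 WT arrays GBP4 and DDX60 had r = 0.36 and within the 9 APP arrays 0.75. PARP9 and IFI44 had 0.76 and 0.94, and DTX3L and SCN9A 0.90 and 0.77. PARP9 and DTX3L had 0.74 within WT and 0.84 within APP arrays, but their deviations from the group means had r = -0.12 over the 21 arrays. GBP4 and PARP9 had 0.09 within WT arrays, where GBP4 was near the floor, and 0.82 within APP arrays. The deviations of GBP4 and PARP9 from the group means had r = 0.11 over the 21 arrays. Correlations within a line include the differences between its compound groups. Arrays of 1 experiment may share their handling, and these correlations are descriptions.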

How the data were processed

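The deposited values are log2 intensities of Affymetrix PrimeView arrays, which the authors computed by RMA with the affy package, as the submitters' processing notes list; versions and genome build are not given in the sources used here. Each array was hybridised with RNA amplified from 25 ng, per the labels' protocols. Such values carry no counts, so the number of arrays, 3 a group, limits the precision. They were used as deposited, and no dim gene was removed.

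Probe sets were named from the platform's annotation: 44988 had 1 symbol, 1832 several, 2473 were not listed, and 79 were controls. Those without a single symbol were left out. The probe set with the highest mean stood for each of 18132 genes, 11734 of which had more than 1.

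All 21 arrays entered 1 limma 3.58.1 model (R 4.3.3, lmFit and eBayes) with 1 coefficient a group, 14 residual and 4.27 prior degrees of freedom. Tests were two-sided, adjusted over all genes within each of 10 comparisons. Probe sets were adjusted over all 44988. On simulated data for APP_DMSO against WT_DMSO with 18132 genes, 74% of genes changed by 0.5, 96% changed by 1 and 100% changed by 2 (log2) were recovered, and 14 of 197 calls were false. The simulated arrays deviated independently of each other, unlike the real arrays described next, and fewer genes were changed than were called in the data. These rates therefore need not hold for these arrays.

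The numbers in the sample titles form 3 runs that hold every group 1 time each. Deviations from group means correlated between 0.23 and 0.68 (median 0.41) over 63 pairs of arrays of the same run and had a median of -0.23 over 126 pairs of different runs. The runs were therefore taken as the 3 experiments and as a replicate block in an alternative fit, whose values stand beside results whose call they change. This pairing is read from the numbers and the data, since the labels do not state it. P-values weigh a difference of group means against the spread between arrays within groups. They do not cover the spread between clones or lines.

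The 10 genes were all named in every comparison. Other genes were named where they were among up to 4 called genes of a list with the largest difference under DMSO, at a count of 5 or fewer, among the 3 measured genes on either side of a cluster, or among the 3 genes most alike by Pearson correlation; CXCL10, IFNG, IFNB1, PTPRC, GBP6, GBP7 and PARG are list members given by their level or as examples. The 10 genes and the lists were chosen with earlier results of these data known. Alternatives were the replicate block, averaging the probe sets of a gene, every probe set, removal of the dimmest 33% of genes, repeated quantile normalization, array weights, centring on array medians, a prior that is trended and robust, a fit on only the groups compared, and each array left out.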

Additional observations from a re-analysis of the deposited data

How the results depend on the processing

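GBP4, PARP9 and DTX3L were the genes called in APP against WT cells under DMSO and NOSCA in all 9 alternative settings. The same held with each array left out, and PARP9 and DTX3L were likewise those called under PALBO. In the setting with every probe set, a gene was judged only by the probe set that stands for it, so no other probe set could add a gene. Over all 31 probe sets, 4 of the genes had a called one under DMSO, PARP14 being added, and 4 under NOSCA, PARP10 being added. Under AG494 the count was 3 or 4, PARP10 being the gene that was lost. For AG494 in WT cells the count of 1 became 2 with the replicate block, the mean of all probe sets or array weights, 0 in a fit on only the groups compared, and 0 to 2 with an array left out; it was 2 without WT_DMSO replicate 3. For NOSCA in WT cells the count of 0 became 2 with the replicate block and 0 to 1 with an array left out, PARP9 passing without WT_DMSO replicate 1 and DTX3L without WT_DMSO replicate 3. For AG494 in APP cells the count of 2 became 4 with array weights. It became 3 with the replicate block, the mean of all probe sets, or without APP_AG494 replicate 1. DTX3L was the gene added with the mean of all probe sets, and PARP10 with the block or without that array. Under NOSCA in APP cells and for both interactions the count stayed at 0. Uncalled differences under DMSO that turned their sign were GBP1 (0.0294 with the mean of all probe sets, 0.0487 with array weights, -0.0959 to 0.0589 with an array left out), GBP2 (0.0169 with the mean of all probe sets, -0.28 to 0.0380 with an array left out) and PARP14 (0.13 with the mean of all probe sets). The causes were not tested. Over all genes, those higher and lower under DMSO were 942 and 735, became 773 and 867 after repeated quantile normalization and 663 and 1000 after centring on medians. For AG494 in APP cells 361 and 500 became 449 and 351 after centring on medians. With the replicate block, 3151 genes were called under DMSO in place of 1677. The removal of the dimmest genes left 4 of the 10 genes, so that it says nothing of the other 6. GBP4, with a mean of 6.63 over all arrays, was kept only through its APP arrays. Its WT arrays lay between 4.89 and 5.58, so that this setting is no separate support for GBP4. Signals low on the scale limit what could be seen for GBP1, GBP2, GBP3, GBP5, PARP12 and PARP14, and for GBP4 in WT cells. The GBP4 genotype differences were 0.78, 1.20 and 0.80 under DMSO, AG494 and NOSCA with the mean of all probe sets.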
